A study of Mus musculus with 6 samples.

Results

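The 4 Notch receptor genes (Notch1 to Notch4), 5 canonical ligand genes (Dll1, Dll3, Dll4, Jag1 and Jag2) and Lfng were taken from the deposited table by gene symbol, 10 of its 55416 genes. All 10 had 1 row each, and all passed the filter on low counts that left 23628 genes for testing. RNA was sequenced from ganglionic eminences, the progenitor zones and mantle of the ventral embryonic forebrain, of mouse embryos at E13.5, in embryonic days. There were 3 libraries from Dlx1/Dlx2 double knockout embryos and 3 from wildtype littermates, and the labels name no other allele, agent or batch. The comparison asks how the receptor and ligand genes of the Notch pathway differed when the transcription factor genes Dlx1 and Dlx2 were missing, and the title of the study names DLX and Notch as one axis.

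Notch signalling passes between touching cells. A ligand of the Delta-like or Jagged type on one cell binds a Notch receptor on its neighbour, proteases then release the receptor's intracellular part, and this fragment joins the DNA-binding protein RBPJ to switch on target genes such as those of the Hes family. In the embryonic brain, cells that begin to differentiate present Delta-like ligands, and Notch activity in the neighbours keeps those as radial glia, the dividing progenitors that line the ventricle. Lfng encodes lunatic fringe, a glycosyltransferase that adds sugars to Notch receptors and changes how they respond to Delta-like and Jagged ligands.

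Total counts ranged from 56618090 to 70114173 per library. Levels are given as CPM, which are counts relative to library size, with sizes adjusted by TMM, the trimmed mean of M values. Dlx1 was at 434.0 to 445.7 CPM in the wild type and 74.9 to 94.0 CPM in the double knockout, and Dlx2 at 281.8 to 313.3 and 7.503 to 10.99 CPM, so no library went against its label. Wild-type replicate 1 stood apart in the summed choroid plexus genes Ttr, Folr1 and Kcne2, at 28.0 CPM against 0.0935 to 0.247 CPM in the other 5 libraries. Y-linked genes together reached 207.1 to 213.8 CPM in wild-type replicate 1 and double knockout replicates 2 and 3, and at 0.0156 to 0.171 CPM in the other libraries, so both patterns occurred in both genotypes. Ganglionic eminence genes such as Gad2 and Nkx2-1 were present in every library, at a sum of 941.9 to 994.1 CPM in the wild type and 675.6 to 879.4 CPM in the double knockout over 6 genes. This list split, with 5 of its 6 genes called by the test described below, against 2.68% of all tested genes. The progenitor genes Gsx2 and Nkx2-1 were higher and Gad1, Gad2 and Lhx6, genes of inhibitory neurons, were lower. Cortical excitatory genes such as Tbr1, Neurod6 and Neurod2, which mark neurons of the neighbouring cortex, were also present, at a sum over 5 genes of 803.4 to 819.8 CPM in the wild type and 615.4 to 638.7 CPM in the double knockout. All 5 had a negative log2 fold change and 1, Neurod2, was called lower. The labels give replicates a number only and do not say which embryos shared a litter, so p-values measure the spread between these libraries.

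Of the 10 genes, 7 were higher in the double knockout and none was lower. These were the receptor genes Notch1, Notch2 and Notch3, the ligand genes Dll1, Dll3 and Jag1, and Lfng. Their levels rose between 1.31-fold (Notch2) and 1.73-fold (Dll3). Notch4, Dll4 and Jag2 did not pass the test. The samples are bulk tissue, in which a change in the number of cells of a type and in the RNA per cell cannot be told apart. Calls rest on the quasi-likelihood test of edgeR, with Benjamini-Hochberg adjusted p below 0.05 over all tested genes, by which 2.68% of them were called, 1.34% higher. For 8 of the 10 genes, the 7 called and Dll4, the libraries of the 2 genotypes did not overlap, which was so for 19.5% of all tested genes. The median log2 fold change of the 10 genes was 0.51, against -0.0016 over all tested genes. Notch1, Notch2, Dll1 and Dll3 were called in each of the 14 alternative settings tried. The number called was 4 without wild-type replicate 2, without double knockout replicate 1, and with Y-linked expression as a covariate, and 5 without wild-type replicate 1, the library with choroid plexus genes.

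**Figure D1:**
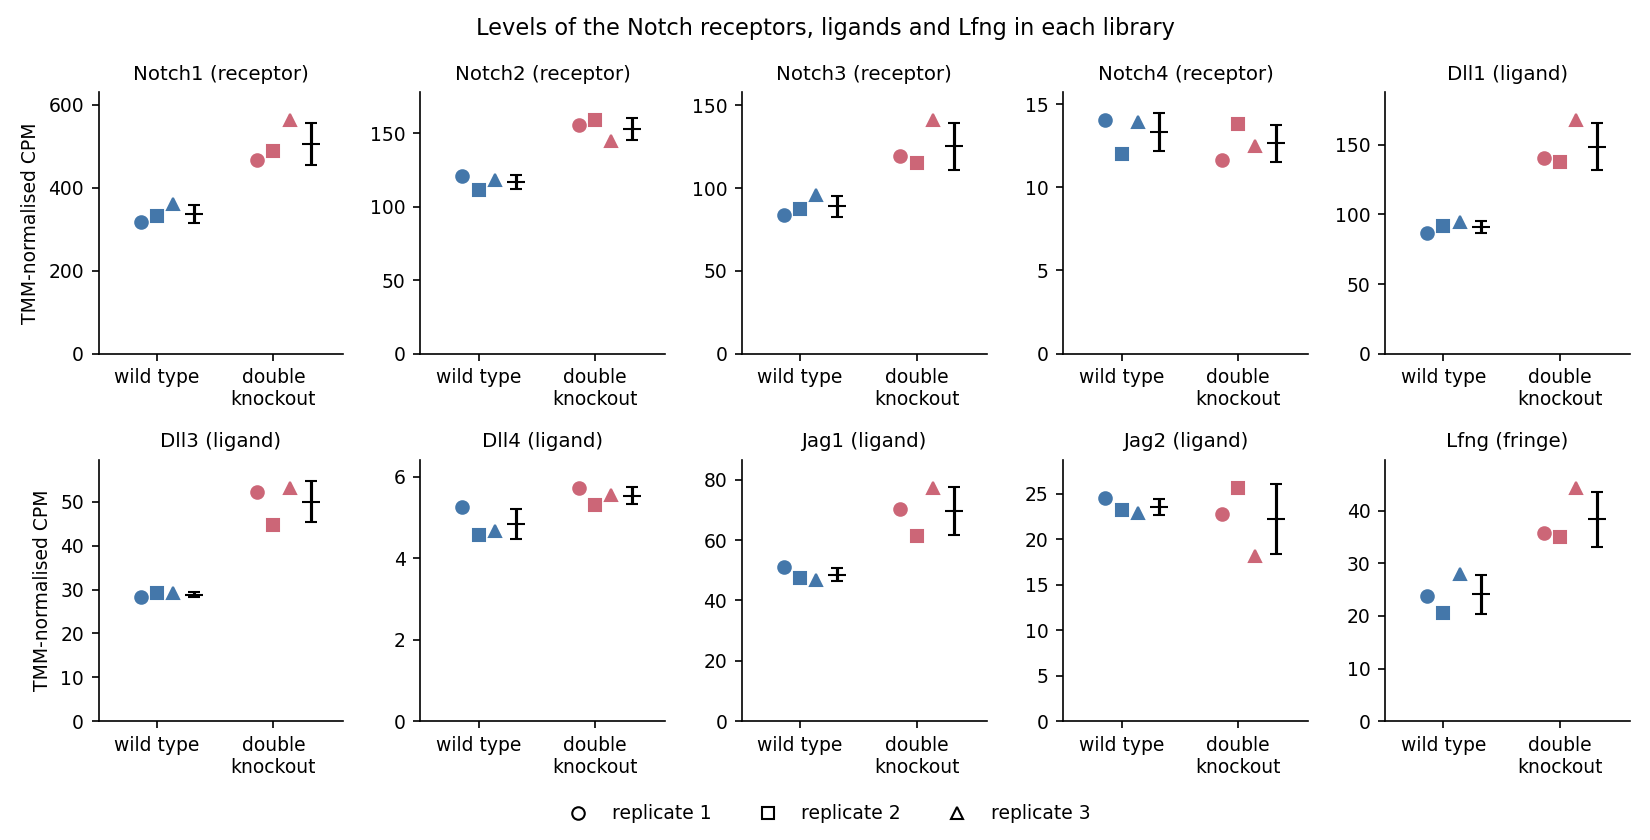
Level of each of the 10 genes in TMM-normalised CPM (vertical axes, each starting at 0) in the 3 wild-type libraries (blue) and the 3 double knockout libraries (red), with marker shapes for replicates and a black bar for the mean ± SD. For the 7 called genes, and for Dll4, every double knockout library lay above every wild-type library, while Notch4 and Jag2 overlapped.

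Among the receptors, Notch1 (ENSMUSG00000026923), the main Notch receptor of neural progenitors, had the highest level. It was at 316.8, 330.9 and 359.5 CPM in wild-type replicates 1 to 3 and at 466.0, 489.3 and 563.0 CPM in double knockout replicates 1 to 3. The groups did not overlap, and the gap between them was wider than the range within either. Its log2 fold change was 0.59 (SE 0.0828, 95% interval 0.40 to 0.78), with an edgeR adjusted p of 0.00747. Notch2 (ENSMUSG00000027878), a second receptor of radial glia, was at 121.2, 111.4 and 118.1 CPM in the wild type and at 155.5, 159.0 and 144.4 CPM in the double knockout. All 3 double knockout libraries were higher, and the highest for Notch1, replicate 3, was the lowest for Notch2. Notch2 had a log2 fold change of 0.39 (SE 0.0551, 95% interval 0.26 to 0.51), with an edgeR adjusted p of 0.00791.

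Notch3 (ENSMUSG00000038146), a receptor of mural cells of blood vessels that is also made by neural progenitors, was at 83.9, 87.3 and 96.0 CPM in the wild type and 119.4, 114.9 and 141.1 CPM in the double knockout. The groups did not overlap, and double knockout replicate 3 stood highest. Notch3 differed by a log2 fold change of 0.49 (SE 0.0847, 95% interval 0.30 to 0.68), with an edgeR adjusted p of 0.0202. This call was lost without wild-type replicate 1, without wild-type replicate 2, without double knockout replicate 1 and with the Y-linked covariate, where the adjusted p lay between 0.0505 and 0.101. Its log2 fold change stayed between 0.40 and 0.55 over all 14 alternatives. Mural marker genes, led by Rgs5, Pdgfrb and Abcc9, summed to 95.9 to 113.7 CPM in the wild type and 103.0 to 118.0 CPM in the double knockout over 9 genes, and none of the 9 was called. Per 100 CPM of these genes, Notch3 was at 73.9 to 91.0 CPM in the wild type and 111.6 to 119.6 CPM in the double knockout, without overlap. How many of all tested genes would be separate on this scale was not computed, and which cells the Notch3 reads came from was not tested.

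Notch4 (ENSMUSG00000015468), an endothelial receptor, was the least expressed receptor. Its level was 14.04, 11.98 and 13.9 CPM in the wild type and 11.7, 13.8 and 12.5 CPM in the double knockout, and the groups overlapped. For Notch4 the log2 fold change was -0.07 (SE 0.101), its 95% interval ran from -0.31 to 0.16, and the edgeR adjusted p was 0.849. Endothelial genes, led by Kdr, Cdh5 and Pecam1, summed to 138.7 to 159.4 CPM in the wild type and 147.2 to 171.5 CPM in the double knockout, and none of the 10 was called.

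Exons of other genes overlap some receptor genes in GENCODE M21, and it is not stated whether counting used strand. The overlapping genes had few reads of their own. How reads shared by overlapping genes were handled is not stated, so these counts do not show how many reads the overlap affected. On the opposite strand of Notch1, 0610009E02Rik had 34 to 63 reads per library and Gm13568 had 2 to 10, against 18562 or more for Notch1 itself. Gm17276, opposite Notch3, had 36 to 74 reads, against at least 4919 for Notch3. Gm42820, on the same strand as Notch2, had 58 to 112 reads, against at least 7102 for Notch2.

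Among the ligands, Dll1 (ENSMUSG00000014773), the Delta-like ligand of differentiating neural cells, was the most counted. It was at 86.5, 91.4 and 94.8 CPM in the wild type and at 140.6, 137.6 and 167.8 CPM in the double knockout. No library of one group reached the other. Dll1 rose by a log2 fold change of 0.71 (SE 0.0794, 95% interval 0.53 to 0.89), with an edgeR adjusted p of 0.00232. Exons of the opposite-strand gene A930024N18Rik cover 20.5% of the exon length of Dll1 in GENCODE M21. That gene was not analysed here, so the counts of Dll1 are uncertain by whatever it contributed and by any reads lost to the overlap.

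Dll3 (ENSMUSG00000003436) changed most of the 10 genes. It encodes a divergent Delta-like protein that resides mainly inside the cell, does not activate Notch in neighbouring cells and can inhibit Notch in its own cell. Its level was 28.2, 29.2 and 29.2 CPM in the wild type and 52.2, 44.6 and 53.3 CPM in the double knockout. The wild-type libraries lay close together, with an SD of 0.581 CPM, and the SD of the double knockout was 4.71 CPM. Dll3 rose by a log2 fold change of 0.79 (SE 0.0760, 95% interval 0.62 to 0.97), with an edgeR adjusted p of 0.00103. No other gene overlaps the exons of Dll3 in GENCODE M21.

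Jag1 (ENSMUSG00000027276), a Jagged ligand, was at 51.1, 47.6 and 46.9 CPM in the wild type and at 70.2, 61.3 and 77.4 CPM in the double knockout. The groups did not overlap, and double knockout replicate 2 came nearest to the wild type. Its log2 fold change was 0.52 (SE 0.0848, 95% interval 0.33 to 0.71), with an edgeR adjusted p of 0.0151. The call of Jag1 was lost without wild-type replicate 2, without wild-type replicate 3, without double knockout replicate 1 and with the Y-linked covariate, at adjusted p from 0.0584 to 0.0766. Jag2 (ENSMUSG00000002799), the other Jagged ligand, showed no such difference. It was at 24.6, 23.2 and 22.9 CPM in the wild type and 22.8, 25.7 and 18.1 CPM in the double knockout. Double knockout replicate 3 was the lowest of all 6 libraries for Jag2, and replicate 2 the highest. Jag2 had a log2 fold change of -0.09 (SE 0.119, 95% interval -0.36 to 0.19) and an edgeR adjusted p of 0.849, and its log2 fold change was 0.047 without double knockout replicate 3.

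Dll4 (ENSMUSG00000027314), the Delta-like ligand of sprouting vessels that some neural progenitors also make, was the least expressed ligand. Wild-type libraries held 294 to 308 reads of Dll4, and double knockout libraries 306 to 385. The level was 5.26, 4.57 and 4.66 CPM in the wild type and 5.73, 5.31 and 5.55 CPM in the double knockout, so the groups were separate by a narrow margin. Groups that do not overlap, with the double knockout higher, occurred for 9.3% of all tested genes. Dll4 had a log2 fold change of 0.20 (SE 0.110, 95% interval -0.05 to 0.45) with an edgeR adjusted p of 0.520. Per 100 CPM of the endothelial genes, it was at 2.997 to 3.30 CPM in the wild type and 3.24 to 3.89 CPM in the double knockout, and these ranges overlapped.

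Lfng (ENSMUSG00000029570) was at 23.8, 20.7 and 28.0 CPM in the wild type and at 35.7, 35.0 and 44.4 CPM in the double knockout. The groups did not overlap, but the wild-type libraries varied more than for any of the other 9 genes, with a coefficient of variation of 15.2%. Lfng rose by a log2 fold change of 0.67 (SE 0.128, 95% interval 0.38 to 0.96), with an edgeR adjusted p of 0.0315. Its call was lost in 5 of 14 alternatives, without wild-type replicate 1 or 2, without double knockout replicate 1 or 2, and with the Y-linked covariate, where the adjusted p ranged from 0.0541 to 0.127. Over all alternatives the log2 fold change of Lfng lay between 0.56 and 0.79. Replicates 3 of both genotypes were the highest of their groups for Lfng, as they were for Notch1, Notch3, Dll1 and Dll3.

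**Figure D2:**
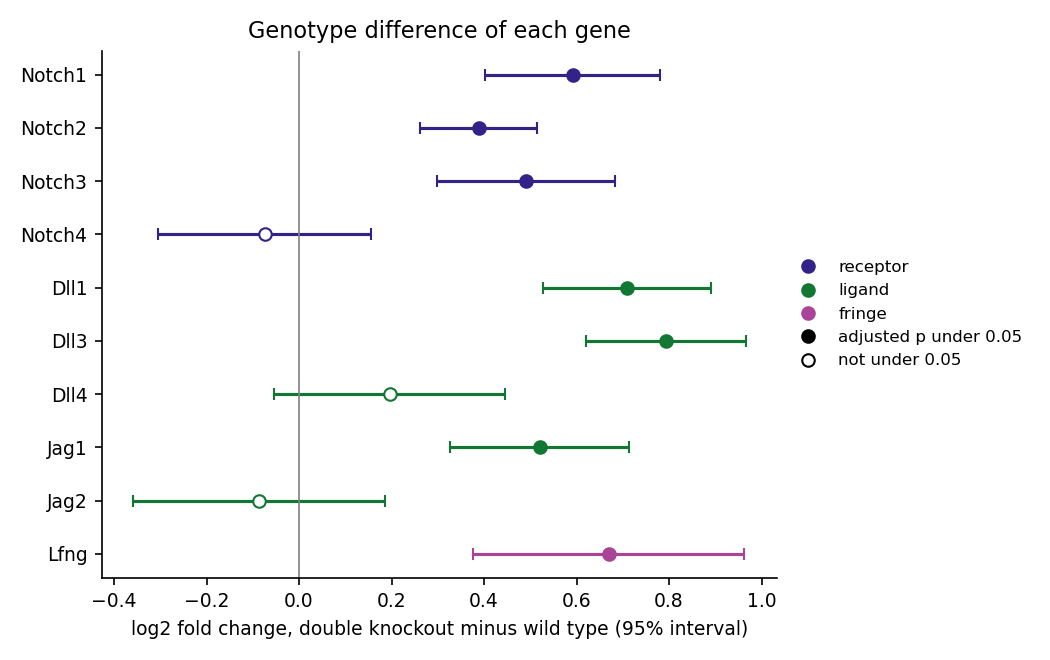
Log2 fold change of each gene, double knockout minus wild type (horizontal axis), with its 95% interval, coloured by role; filled points had an adjusted p below 0.05. The 7 filled points lie between 0.39 (Notch2) and 0.79 (Dll3), and the intervals of Notch4, Dll4 and Jag2 include 0.

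The sequence just upstream of the start site was read for all 10 genes from RefSeq promoter windows on the build GRCm38.p6, each running from 250 bases before to 50 bases after a start. The submitters' notes name the build GRCm39 for the counts, so these coordinates do not belong to the deposited table. Dll1 has 2 start sites in RefSeq, which made 11 windows. They were searched on both strands for 3 short motifs. CAGCTG, an E-box bound by proneural basic helix-loop-helix proteins, was found in 16.3% of all 32851 windows. TGGGAA, the core of the RBPJ site, was found in 25.6%, and TAATTA, a core bound by many homeodomain proteins including DLX factors, in 5.29%. These letters are short and occur often, so a match is a description of the window and not a binding site.

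The CAGCTG motif was present in the windows of 4 of the 10 genes, namely Dll1, Dll3, Jag1 and Lfng. All 4 were called, but so were 7 of the 10 genes, and the called genes Notch1, Notch2 and Notch3 had no match. A link between the motif and the calls was not tested. The matching stretches are shown because the motif is what these windows shared. Each runs 5′ to 3′ on the strand of the gene with the E-box in capitals, and positions are counted from the RefSeq start site.
Dll1, E-box from -132, chr17:15377047-15377076, minus strand: tgcattaccataCAGCTGagcgcacaaaga
Dll3, E-box from -7, chr7:28301775-28301804, minus strand: tccggcatccagCAGCTGcgactcctgaga
Jag1, E-box from -82, chr2:137116585-137116614, minus strand: ccgcgtttcatgCAGCTGatctgaaaggga
Lfng, E-box from -146, chr5:140607183-140607212, plus strand: ccgtgggtacccCAGCTGggtggttcccag
Lfng, E-box from 2, chr5:140607330-140607359, plus strand: gcgagaggcgcgCAGCTGgaccgggagcct
The match of Dll1 is in the window of its upstream start, and the window of its downstream start held none of the 3 motifs. GENCODE M21 has transcripts with 453 bases before the RefSeq start of Dll3 and 124 bases before that of Jag1. These are counted along the transcript without introns, so whether both of these matches lie within exons was not checked.

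Lfng was the only one of the 10 genes whose window held the RBPJ core TGGGAA, with 2 matches on opposite strands that begin at -135 and -108. The homeodomain core TAATTA was in none of the 11 windows, which says only that those letters are missing from them. The upstream sequences of Notch1, the most counted receptor gene, Dll1 and Lfng are shown whole, with every match in capitals, to let the windows with and without a match be compared. Those of Notch1 and Lfng end 2 and 21 bases before the RefSeq start, the number of bases by which a GENCODE M21 transcript extends before it. That of Dll1 runs up to its upstream RefSeq start, for which no such number was found.
Notch1, chr2:26503825-26504072, minus strand: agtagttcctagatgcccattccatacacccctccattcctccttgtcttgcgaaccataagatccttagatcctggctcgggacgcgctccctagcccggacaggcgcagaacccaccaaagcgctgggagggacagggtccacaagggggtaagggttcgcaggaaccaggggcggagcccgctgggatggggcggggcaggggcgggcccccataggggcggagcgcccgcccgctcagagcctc
Dll1, upstream start, chr17:15376933-15377182, minus strand: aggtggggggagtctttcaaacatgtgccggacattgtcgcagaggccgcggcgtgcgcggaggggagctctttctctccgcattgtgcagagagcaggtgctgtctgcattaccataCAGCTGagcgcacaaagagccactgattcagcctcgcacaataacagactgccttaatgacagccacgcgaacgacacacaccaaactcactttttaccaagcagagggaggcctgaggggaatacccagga
Lfng, chr5:140607091-140607319, plus strand: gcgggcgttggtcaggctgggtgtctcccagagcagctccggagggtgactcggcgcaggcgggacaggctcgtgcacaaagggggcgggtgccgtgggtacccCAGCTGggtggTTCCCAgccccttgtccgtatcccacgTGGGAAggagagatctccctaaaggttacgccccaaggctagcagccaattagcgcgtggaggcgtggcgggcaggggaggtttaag
The Notch1 stretch has no capitals, and the Lfng stretch holds 1 E-box and both RBPJ cores within its middle part. GC content of the windows was 68.3% for Notch1, 56.3% for the upstream start of Dll1 and 66.7% for Lfng, against a median of 52.7% over all windows.

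Receptors and ligands were then compared as levels per length, in CPM per kilobase of annotated exon, since a longer transcript yields more reads. The length is that of all annotated exons of a gene merged, 14232 bases for Notch1, and can exceed that of the transcripts present. Comparisons between genes, and the ratio below, depend on this choice. In the wild type, Notch1 at 23.6 ± 1.53 (SD, n = 3) and Dll1 at 21.6 ± 0.999 CPM per kilobase were the highest of the 10 genes, and their libraries overlapped. Next came Notch3 at 11.01 ± 0.771 and Notch2 at 10.8 ± 0.465, which overlapped each other, then Dll3 at 10.1 ± 0.204, below every library of Notch2. Lfng at 9.63 ± 1.46 CPM per kilobase overlapped Dll3 above it and Jag1, at 8.33 ± 0.383, below it. Jag2 at 3.39 ± 0.126, Notch4 at 1.65 ± 0.143 and Dll4 at 1.254 ± 0.0964 CPM per kilobase were the lowest 3, and none of them overlapped a neighbour in this order.

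In the double knockout, Notch1 at 35.6 ± 3.56 and Dll1 at 35.2 ± 3.94 CPM per kilobase again overlapped at the top. Dll3, at 17.6 ± 1.65 CPM per kilobase, was now above Notch3 at 15.5 ± 1.73, Lfng at 15.3 ± 2.10 and Notch2 at 14.2 ± 0.709, though its range met those of Notch3 and Lfng. Jag1 at 11.9 ± 1.39 CPM per kilobase was below every library of Notch2. Jag2 at 3.19 ± 0.550 was separate from Notch4 at 1.57 ± 0.137, which overlapped Dll4 at 1.44 ± 0.0552 CPM per kilobase.

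The 4 receptors together were at 45.6, 45.9 and 49.8 CPM per kilobase in the wild type and 63.4, 65.1 and 71.9 in the double knockout. The 5 ligands together were at 44.1, 44.6 and 45.3 CPM per kilobase in the wild type and 68.4, 63.9 and 75.8 in the double knockout. The ratio of ligands to receptors per length was 0.966, 0.973 and 0.909 in the wild type and 1.08, 0.982 and 1.05 in the double knockout. These ranges were separate by a small margin, between 0.973 and 0.982, and the difference was not tested, since a score over chosen genes has no p. Without scaling by length the ratio ranged from 0.338 to 0.365 among wild-type libraries and from 0.353 to 0.387 among double knockout libraries, and the ranges overlapped. Of the receptors 3 of 4 and of the ligands 3 of 5 were called, with median log2 fold changes of 0.44 and 0.52.

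The makeup of each class was described by the share of each gene, without a test. Shares add up to the whole of a class, so a share can fall where the level of its gene does not. The levels of Notch4 and Jag2 themselves overlapped between the genotypes. Notch4 made up 3.24% to 3.82% of the summed receptors per length in wild-type libraries, against 2.15% to 2.64% in double knockout libraries. Notch1 took 48.8% to 50.7% in the former and 51.7% to 55.0% in the latter. Jag2 accounted for 7.27% to 8.01% of the ligands in wild-type libraries and for 3.43% to 5.78% in those of the double knockout, and Dll3 for 22.5% to 23.0% and 24.5% to 26.8%. None of these 4 pairs of ranges overlapped. The shares of a class depend on each other, so these pairs do not count as 4 separate findings. No background rate of such separation was computed for shares. The shares of Dll4 and of Jag1 were lower in every double knockout library, although the levels of both genes were higher in each. For Jag1 the margin was narrow, at most 17.6% in the double knockout and at least 17.8% in the wild type. The shares of Notch2, Notch3 and Dll1 overlapped between the genotypes.

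**Figure D3:**
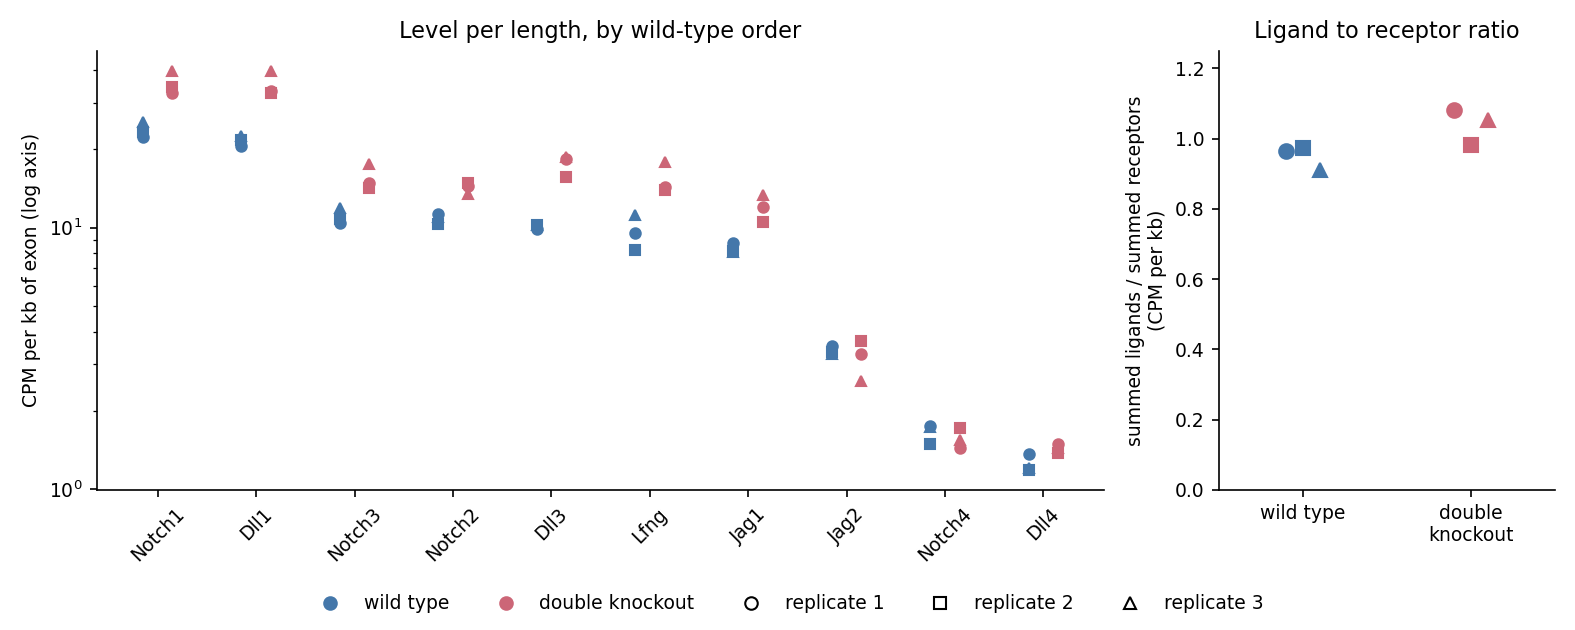
Left, level of each gene in CPM per kilobase of exon (log axis), ordered by the wild-type mean, in wild-type (blue) and double knockout (red) libraries; right, summed ligands divided by summed receptors per length in each library. Notch1 and Dll1 stand highest in both genotypes, and the ratio is 0.909 to 0.973 for wild-type and 0.982 to 1.08 for double knockout libraries.

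Marker genes of several cell classes moved with the genotype. Radial glia genes, led by Nes, Vim and Fabp7, summed to 1820 to 2018 CPM in the wild type and 2205 to 2387 CPM in the double knockout over 8 genes. Of these, 7 had a positive log2 fold change and 1, Gli3, was called higher. Genes of postmitotic neurons, led by Dcx, Map2 and Tubb3, summed to 5073 to 5542 CPM in the wild type and 4103 to 4825 CPM in the double knockout, and none of the 5 was called. Map2 overlapped between the genotypes, with a log2 fold change of -0.014, against -0.37 for Dcx and -0.33 for Tubb3. Genes of dividing cells, led by Top2a, Mki67 and Mcm2, overlapped at 1476 to 1701 and 1614 to 2098 CPM, with the highest value in double knockout replicate 3.

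Relative to the summed radial glia genes, the 7 called genes were 1.10-fold (Notch2) to 1.45-fold (Dll3) higher in the double knockout. Per 100 CPM of radial glia genes, Notch1 was at 17.4, 16.4 and 18.6 CPM in the wild type and 20.4, 22.2 and 23.6 CPM in the double knockout. Dll1 was at 4.75, 4.53 and 4.91 CPM and at 6.16, 6.24 and 7.03 CPM by the same measure. Notch1, Notch3, Dll1, Dll3 and Lfng were higher without overlap on this scale, 5 of the 10 genes, as were 2.18% of all tested genes. Notch2 and Jag1 overlapped, at 5.52 to 6.66 against 6.05 to 7.21 CPM and at 2.36 to 2.81 against 2.78 to 3.24 CPM. How much of each gene's rise went with the radial glia genes was not tested beyond these ratios.

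**Figure D4:**
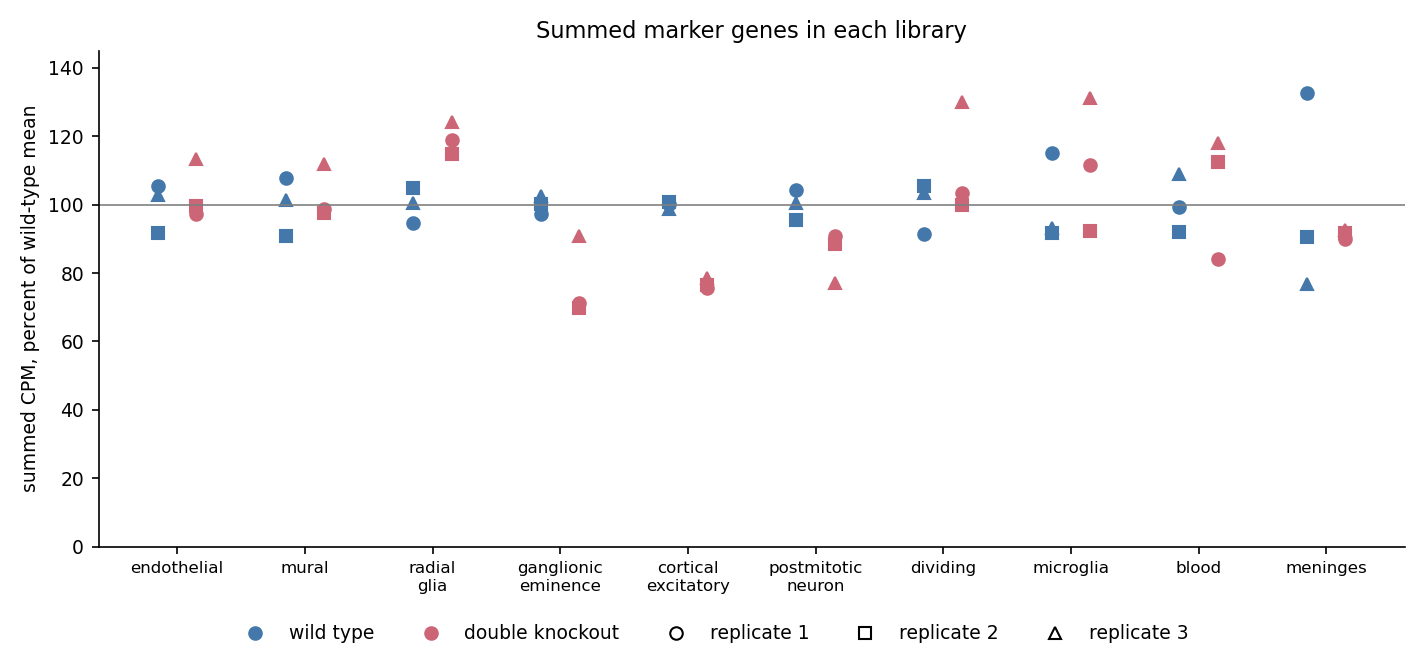
Summed CPM of marker genes of 10 cell classes in each library, as a percent of the wild-type mean (grey line), in wild-type (blue) and double knockout (red) libraries. Radial glia genes are higher and ganglionic eminence, cortical excitatory and postmitotic neuron genes lower in every double knockout library, while the other classes overlap.

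The other Notch pathway genes were taken as 42 genes in 8 roles, all of which passed the filter. Of these 7 were called, all higher, which is 16.7%, against 2.68% of all tested genes in either direction. The list was chosen with earlier results of these data known, so these shares are set side by side without a test. The median log2 fold change of all 42 was 0.034. The number called was 3 with the Y-linked covariate and without wild-type replicate 1, 2 or 3 or double knockout replicate 1, each time Dlk1, Nrarp and Hes5. Over all tested genes these settings called 1.27% to 1.66%. DESeq2 called 11 of the 42, and 4.92% of all tested genes.

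Dlk1, a membrane protein with Delta-like repeats that lacks the domain by which canonical ligands bind Notch, was the only one of 3 non-canonical ligand genes called. It was at 53.7, 57.9 and 56.7 CPM in the wild type and 141.5, 142.6 and 164.8 CPM in the double knockout, a log2 fold change of 1.42 whose 95% interval, 1.26 to 1.57, lay above those of all 10 receptor, ligand and fringe genes. Of 4 genes for ligand endocytosis, the step in the signalling cell that pulls on the receptor, none was called. Mib1 was at 253.1 ± 9.501 and 297.5 ± 11.1 CPM and Mib2 at 41.0 ± 1.65 and 39.8 ± 1.23 CPM (SD, n = 3) in wild type and double knockout. Among the other fringe and O-glycosylation genes none of 4 was called, with Mfng, manic fringe, at 54.3 ± 4.93 CPM in the wild type, 80.2 ± 17.0 CPM in the double knockout and an edgeR adjusted p of 0.0795. Poglut1, an O-glucosyltransferase for Notch, was at 46.5 ± 1.32 and 46.1 ± 1.94 CPM.

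None of the 9 genes for receptor cleavage was called. Adam10, the protease that makes the first ligand-induced cut, had a log2 fold change of -0.0027 (95% interval -0.11 to 0.10). The nuclear complex had 2 of 5 genes called. Rbpj went from 126.6 ± 3.58 CPM to 159.0 ± 14.8 CPM (SD, n = 3; edgeR adjusted p = 0.0448), and Maml2, a coactivator, from 18.6 ± 0.129 CPM to 27.4 ± 4.11 CPM (edgeR adjusted p = 0.0316). Rbpj was called in 7 and Maml2 in 9 of 14 alternatives.

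Of the 9 regulators 3 were called. Nrarp, a target that feeds back to limit Notch signalling, was at 8.82, 8.37 and 8.62 CPM in the wild type and 13.54, 12.7 and 13.2 CPM in the double knockout, and was called in all 14 alternatives. Exons of an antisense gene, Gm38287, cover 79.4% of the exon length of Nrarp in GENCODE M21, and this gene had 0 reads in all 6 libraries. Whether Nrarp lost reads to this overlap is not known. Dtx4, of the Deltex family, and Fbxw7, which directs degradation of the Notch intracellular fragment, had log2 fold changes of 0.27 and 0.24. Dtx4 was called in 6 and Fbxw7 in 8 of 14 alternatives. Of the 5 target genes all had a positive log2 fold change and 1, Hes5, was called. Hes5 was at 21.8, 25.6 and 24.7 CPM in the wild type and 35.2, 41.0 and 39.2 CPM in the double knockout, and was called in all 14 alternatives. Gm20421, on the opposite strand over 31.8% of the exon length of Hes5, had 1 to 14 reads per library. Whether Hes5 lost reads to this overlap is likewise not known. None of the 3 proneural genes was called. Neurog2 was at 60.4 ± 5.06 and 51.6 ± 6.80 CPM (SD, n = 3).

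**Figure D5:**
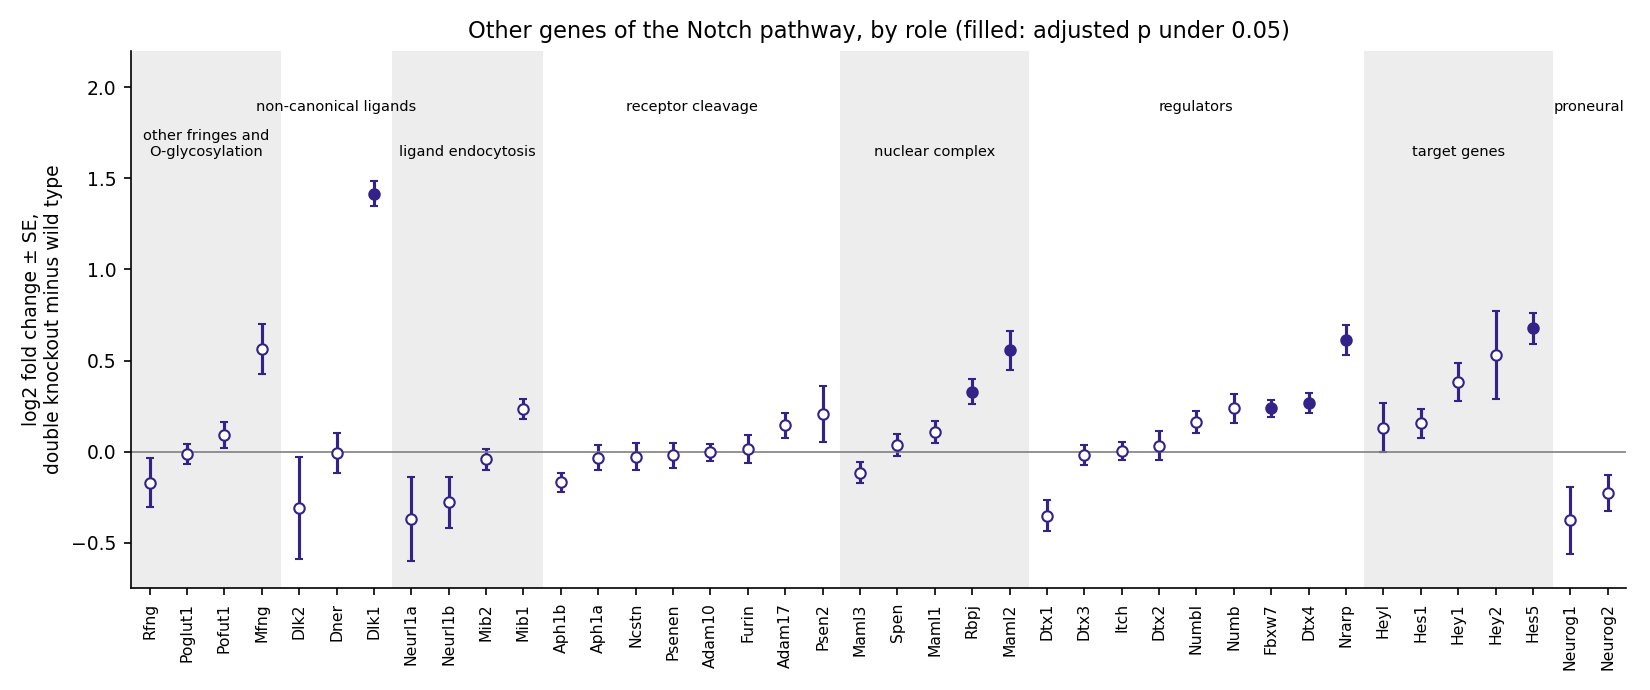
Log2 fold change ± SE of other Notch pathway genes, double knockout minus wild type (vertical axis), grouped by role; filled points had an adjusted p below 0.05. Dlk1 lies highest, at 1.42, receptor cleavage genes lie between -0.17 and 0.21, and all 5 target genes lie above 0.

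The genes whose pattern over the 6 libraries was most like that of the most counted receptor and ligand were sought among the 12360 genes whose mean level was 5 CPM or more. By Pearson's r of log2 CPM, Notch1 was most like Hdac9 (0.9972), Nek7 (0.9971) and Zfp36l2 (0.9968). Dll1 was most like Dcaf8 (0.9995), Pde3b (0.9992) and Gpc4 (0.9978). The points share their libraries and fall into 2 genotype groups, so these values describe likeness only. The closest pattern need not mean a like size, as the log2 fold change of Dcaf8 was 0.21 and that of Dll1 0.71.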

How the data were processed

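Total RNA from ganglionic eminences of Dlx1/Dlx2 double knockout and wild-type mouse embryos, with 3 libraries of each, was sequenced after depletion of ribosomal RNA with a stranded kit, per the labels' protocols. The authors deposited 1 table of unnormalised read counts per gene, made with featureCounts on GRCm39 per the submitters' processing notes. The aligner, annotation release, versions and strand and multi-mapping settings are not given in the sources used here. Groups and replicate numbers came from the sample titles.

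From the counts, genes were filtered with filterByExpr (minimum count 10, minimum total count 15), scaled by TMM and tested with edgeR 4.0.16 (glmQLFit and glmQLFTest, prior count 0.125) in R 4.3.3. SE is the log2 fold change divided by the square root of F, and 95% intervals use t with 8.522 degrees of freedom. Alternatives used DESeq2 1.42.0, limma 3.58.1 (voom), other scalings and filters, a replicate block, a Y-linked covariate and each library left out. The procedure was tested on simulated data. Exon lengths and overlaps came from GENCODE M21 (GRCm38) by gene identifier, and whether the authors used that release is not stated. Every library had at least 294 reads of each of the 10 genes. At these depths a count of 3, the lowest that would be taken as detected, is 0.0428 to 0.053 CPM, for counting error only. No pair of libraries agreed within sampling noise (chi-square per gene of at least 9.573).

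The 10 genes and all lists were chosen with earlier results of these data known. Beside the 10 genes, up to 4 called genes per pathway role are named, or the 2 most counted where none was called, the 3 most counted of each marker list, and the 3 genes most like the leading receptor and ligand. Dtx1 and Mfng in the alternatives, Gli3, Gsx2, Gad1, Lhx6 and the overlapping genes were named after their values were seen. Some list genes count in the totals but are not named or plotted here.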

Additional observations from a re-analysis of the deposited data

How the results depend on the processing

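Over the 14 alternatives for each of the 10 genes, 126 of 140 values kept both direction and side of the threshold, 13 lost the call (Notch3, Jag1 and Lfng only) and 1 changed direction, that of Jag2, whose log2 fold change ranged from -0.20 to 0.047 with a library left out and was above 0 only without double knockout replicate 3. The number of the 10 genes called was 7 with each other scaling, filter or test and with the replicate block, 4 with the Y-linked covariate, and 4 to 7 with a library left out. For the 42 other pathway genes it was 11 with DESeq2 and with no filter (10 higher and 1, Dtx1, lower), 3 with the Y-linked covariate, 9 with the replicate block and 3 to 8 with a library left out. Over all tested genes it was 634, against 1162 with DESeq2, 359 with the Y-linked covariate, 690 with the replicate block and 309 to 749 with a library left out. Total count scaling called 646, of which 60.4% were higher, against 50% with TMM. Fewer libraries leave fewer degrees of freedom; beyond that the cause was not tested.

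Without length scaling the ligand to receptor ratio was 0.355 in the wild type and 0.371 in the double knockout, in place of 0.949 and 1.04. The merged exons of the receptor genes are longer than those of the ligand genes. Same-numbered libraries correlated at 0.0322 to 0.0787 in their deviations from the group means over all tested genes, and at 0.104 to 0.166 over genes whose mean level was 1 CPM or more. Each library correlated best with its own number over the latter genes but not over all tested genes. The labels do not say that a number marks a litter, so the pairing is at most a hint from the data. With the block Dtx4 was no longer called, and Mfng and, as a decrease, Dtx1 were among the genes gained. With 3 libraries a group, no group was tested for outlying libraries.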

Other observations

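Wild-type replicate 1 was the only library with choroid plexus transcripts above a trace. Ttr, the transthyretin gene that this tissue makes in quantity, averaged 8.81 ± 15.1 CPM (SD, n = 3) in the wild type, where the SD reflects this 1 library, and 0.0944 ± 0.0410 CPM in the double knockout. Of the 10 Notch genes, this library was the highest wild-type library for Notch2, Notch4, Dll4, Jag1 and Jag2 and the lowest for Notch1, Notch3, Dll1 and Dll3. Meningeal genes, led by Col1a1, Col3a1 and Col1a2, summed to 34.4 CPM in it, against 19.9 to 24.0 CPM in the other libraries. The part of these other tissues in the levels of the Notch genes was not tested. Microglial and blood genes overlapped between the genotypes, at 25.8 to 32.3 against 25.9 to 36.8 CPM and at 91.6 to 108.6 against 83.9 to 117.6 CPM.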
